A study of Mus musculus with 227 samples.

Results

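Aggrecan, its link protein and the matrilins are secreted proteins of cartilage and other connective tissue matrix. The set described here is the 6 genes Acan, Hapln1, Matn1, Matn2, Matn3 and Matn4, chosen by name from the 24388 genes of a single-cell table, and all 6 were found there. Cells of newborn mouse long bone were sorted by surface antigens into 4 skeletal populations, captured individually on a microfluidic chip and sequenced as full-length cDNA with ERCC spike-in RNA. The table gives FPKM, in which fragments are counted per length of transcript and per total mapped, so levels of different genes are per length. The question here is where in these populations each gene was found, how much of it, and in which combinations.

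All cells came from BL6 mice at postnatal day 3, with no transgene or treatment named. The gates shared the absence of CD45 and Ter-119 and the presence of AlphaV integrin, and those of THY+, CSP and mSSC cells also named the absence of Tie2. The 6C3+ cells were further Thy-6C3+CD105+, the THY+ cells Thy+6C3-CD105+, the CSP cells Thy-6C3-CD105+ and the mSSC cells Thy-6C3-CD105-CD200+. A gene was counted as detected in a cell at an FPKM of at least 1, and the values below come from the 125 of 227 cells with at least 1000 detected genes. These were 34 of 92 6C3+ cells, 43 of 72 THY+ cells, 11 of 26 CSP cells and 37 of 37 mSSC cells. No animal or culture is named, so each population is 1 sample, differences between populations have no replicate check, and no p-value is given. Intervals on shares of cells are exact Clopper-Pearson 95% intervals and cover counting error between cells only.

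The populations differed in ways other than their gates. Index positions in the cell titles put the 6C3+ cells in 1 set, the THY+ cells in another, and the CSP and mSSC cells together in the third. Each such set is called a plate here, although the positions do not show which cells shared a capture chip. Except between CSP and mSSC, a population cannot be told apart from its plate. Among the 125 cells the median number of detected genes was 2639 in 6C3+, 2835 in THY+, 3033 in CSP and 2534 in mSSC cells. Spike-ins made up a median of 18.9% of the FPKM in 6C3+ cells and 20.8% in THY+ cells, against 0.000945% in CSP and 0.00117% in mSSC cells. The part these gaps play in the differences below was not tested, and the differences were also computed for FPKM rescaled to the same total of gene FPKM in every cell. Chondrocyte markers other than the 6 genes (13 genes, with type II, IX and XI collagens and Sox9) were detected at a median of 9 per 6C3+ cell, 4 per THY+ cell, 12 per CSP cell and 12 per mSSC cell. Their summed FPKM ran over 1.39 to 51806 in 6C3+, 0 to 46436 in THY+, 2184 to 115543 in CSP and 0.595 to 189624 in mSSC cells. Of 4 endothelial markers, 2 were detected in any 6C3+ cell, 1 in any THY+ cell and 0 in any CSP or mSSC cell, with summed FPKM up to 60.6 in 6C3+ and 14.1 in THY+ cells. Of 4 blood markers, 0 were detected in 6C3+, 1 in THY+, 0 in CSP and 3 in mSSC cells, with summed FPKM up to 0.0564, 3.28, 0 and 85.1. Ptprc, which encodes CD45 and is among them, was detected in no cell of any population.

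Aggrecan, encoded by Acan, is the large proteoglycan that holds water in cartilage through its many chondroitin sulfate chains. It binds to a backbone of hyaluronan, and link protein, encoded by Hapln1, locks the pair together into aggregates. The matrilins are adaptor proteins that join collagen fibrils to proteoglycans. Matn1 and Matn3 are the cartilage matrilins, while Matn2 and Matn4 are found more widely in connective tissues.

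In mm10 with GENCODE M21, all 6 are protein-coding genes on 6 chromosomes. Acan lies on chromosome 7 (79053483 to 79115099, plus strand), Hapln1 on 13 (89539796 to 89611652, plus strand) and Matn1 on 4 (130944385 to 130955475, plus strand). Matn2 lies on 15 (34306677 to 34436273, plus strand), Matn3 on 12 (8947929 to 8972028, plus strand) and Matn4 on 2 (164389393 to 164405160, minus strand). Matn1 and Matn3 each have 8 exons, and the longest annotated Matn2 transcript has 19. Matn2 overlaps 9430069I07Rik on the other strand, which was detected in no main cell of any population, and Matn4 overlaps Rbpjl, detected in 3 THY+ and 2 CSP cells. The library chemistry does not keep strand, so strand cannot tell apart reads from a stretch that both genes of such a pair share. Overlap was taken from whole gene spans, and overlap of exons was not computed. Hapln1 overlaps the pseudogene Gm8546, for which no separate value was used here.

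The 250 bases before the RefSeq start sites of Acan, Matn1 and Matn3 are shown because these genes were high and low in the same populations. Hapln1 shared that pattern, but its RefSeq window starts inside the GENCODE gene and is not printed. The Acan window ends upstream of the GENCODE start given above. They are read 5′ to 3′ on the plus strand of GRCm38.p6, the patch release of the mm10 assembly, and capitals mark CG dinucleotides.
Acan chr7:79052976-79053225: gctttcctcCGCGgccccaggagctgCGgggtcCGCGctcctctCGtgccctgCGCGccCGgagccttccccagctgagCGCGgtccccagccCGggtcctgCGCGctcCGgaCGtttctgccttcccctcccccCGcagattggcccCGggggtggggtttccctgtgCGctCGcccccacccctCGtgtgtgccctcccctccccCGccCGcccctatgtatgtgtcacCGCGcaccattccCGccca
Matn1 chr4:130944135-130944384: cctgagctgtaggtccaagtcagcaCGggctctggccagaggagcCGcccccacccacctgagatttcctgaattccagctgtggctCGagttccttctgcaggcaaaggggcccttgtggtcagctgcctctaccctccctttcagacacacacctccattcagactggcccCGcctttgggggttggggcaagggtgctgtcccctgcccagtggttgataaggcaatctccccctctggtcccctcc
Matn3 chr12:8947679-8947928: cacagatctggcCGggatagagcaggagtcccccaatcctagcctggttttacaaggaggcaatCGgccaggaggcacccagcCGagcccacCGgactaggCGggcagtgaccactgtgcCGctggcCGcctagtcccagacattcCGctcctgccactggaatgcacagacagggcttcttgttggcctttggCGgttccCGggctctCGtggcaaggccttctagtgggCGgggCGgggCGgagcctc
The stretches differ in their number of CG. There are 26 in the Acan sequence, 4 in that of Matn1 and 14 in that of Matn3. In the full 300-base windows, which add 50 bases after the start, the counts were 31, 6 and 15, and the median of 32851 windows in the RefSeq table was 7. As many CG as in the Acan window were found in 10.6% of windows, and as many as in the Matn3 window in 34.6%. CG was counted after the sequences had been seen. On both strands, the SOX-type words ACAATG and ACAAAG and the TATA-box word TATAAA had 0 matches in these windows, and 12.6%, 18.7% and 13.6% of all windows held each word. The Matn4 windows also had 0 matches, as did that of Hapln1, which does not lie at the GENCODE start of the gene.

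The proteoglycan core and its link protein were found in all 4 populations, with higher levels in CSP and mSSC cells. Acan FPKM had a lowest, median and highest value of 0, 30.3 and 257 in 6C3+ cells, 0, 10.9 and 699 in THY+ cells, 30.1, 518 and 1813 in CSP cells, and 0, 315 and 2455 in mSSC cells. The ranges overlap, but the upper quartile of 69.4 in 6C3+ cells lay below the lower quartiles of 333 in CSP and 157 in mSSC cells. The upper quartile of 193 in THY+ cells lay below the CSP lower quartile and above the mSSC one. With rescaled FPKM the 6C3+ upper quartile was 252, below the CSP lower quartile of 712 and above the mSSC one of 223. Acan was detected in 26 of 34 6C3+ cells (76.5%, 58.8 to 89.3), 25 of 43 THY+ cells (58.1%, 42.1 to 72.99), 11 of 11 CSP cells (100%, 71.5 to 100) and 36 of 37 mSSC cells (97.3%, 85.8 to 99.9). Only the intervals of THY+ and mSSC do not overlap. Acan reached an FPKM of 100 in 7 6C3+, 13 THY+, 10 CSP and 33 mSSC cells, and a rescaled FPKM of 100 in 14, 19, 10 and 33. In THY+ cells the gene was at 0 in 16 of 43 cells and spread widely in the rest, with 22 cells at 10 or more. The median in the 25 THY+ cells with Acan was 139, against 45.03 in the 26 such 6C3+ cells. With rescaled FPKM these medians were 225 in 26 THY+ cells and 116 in 27 6C3+ cells.

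The median levels of Hapln1 put the populations in the same order. Its lowest, median and highest FPKM were 0, 46.3 and 919 in 6C3+ cells, 0, 0.629 and 2111 in THY+ cells, 5.07, 1193 and 4738 in CSP cells, and 0, 439 and 3274 in mSSC cells. The highest THY+ cell was above the CSP and mSSC medians, so the groups overlap, although the typical THY+ cell was below the detection limit. It was detected in 24 of 34 6C3+ cells (70.6%, 52.5 to 84.9), 19 of 43 THY+ cells (44.2%, 29.1 to 60.1), 11 of 11 CSP cells (100%, 71.5 to 100) and 34 of 37 mSSC cells (91.9%, 78.1 to 98.3). The THY+ interval lies below those of CSP and mSSC, and the 6C3+ interval overlaps all the others.

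Matn1 and Matn3, the cartilage matrilins, were found mainly in CSP and mSSC cells. Matn1 had a lowest, median and highest FPKM of 0, 0 and 0 in 6C3+ cells, 0, 0 and 1.96 in THY+ cells, 0, 1923 and 4746 in CSP cells, and 0, 415 and 7016 in mSSC cells. No 6C3+ or THY+ cell reached the lowest CSP cell with the gene, at 530. Detection counts were 0 of 34 6C3+ cells (0%, upper bound 10.3), 2 of 43 THY+ cells (4.65%, 0.568 to 15.8), 10 of 11 CSP cells (90.9%, 58.7 to 99.8) and 25 of 37 mSSC cells (67.6%, 50.2 to 81.99). Both 6C3+ and THY+ intervals lie wholly below those of CSP and mSSC, which overlap each other. The 58 6C3+ cells under 1000 genes were also all listed at 0 for Matn1, while 6 of the 15 CSP cells under that number had it.

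In mSSC cells Matn1 was either listed at 0 or, in most cells that had it, high. There were 12 of 37 mSSC cells at exactly 0, and 22 of the 25 with the gene were at 100 or more. The median among cells with Matn1 was 1949 in the 10 CSP cells and 1848 in the 25 mSSC cells. With rescaled FPKM these medians were 3019 in the 10 CSP cells and 1487 in 24 mSSC cells, so how far apart they lie depends on the scale. The 2 THY+ cells with the gene had 1.82 and 1.96.

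Matn3 was detected in 5 of 34 6C3+ cells (14.7%, 4.95 to 31.1), 6 of 43 THY+ cells (13.95%, 5.30 to 27.9), 10 of 11 CSP cells (90.9%, 58.7 to 99.8) and 32 of 37 mSSC cells (86.5%, 71.2 to 95.5). Its lowest, median and highest FPKM were 0, 0 and 475 in 6C3+ cells, 0, 0 and 1747 in THY+ cells, 0, 851 and 2668 in CSP cells, and 0, 659 and 4947 in mSSC cells. As with Matn1, the intervals of 6C3+ and THY+ lie below those of CSP and mSSC, and within each pair they overlap. The few THY+ cells with Matn3 were not low in it, with a lowest value of 86.8 and a median of 515 among the 6. The 5 such 6C3+ cells ran over 7.53 to 475 with a median of 60.3.

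The THY+ cells with Matn3 were unevenly spread over the index rows. In the first index row 4 of 9 THY+ cells had it, against 2 of 34 in the other rows, and the median spike-in share was 1.06% in that row and 24.5% in the others. Acan was detected in 7 of the 9 cells and in 18 of the 34, and Hapln1 in 7 of the 9 and in 12 of the 34. Without the first 2 rows, 23 THY+ cells were left, with Acan in 16, Hapln1 in 10 and Matn3 in 2. None of the 36 calls on differences (6 genes in 6 comparisons) changed without those rows.

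Matn2 ran the other way. Its lowest, median and highest FPKM were 0, 49.6 and 1980 in 6C3+ cells, 0, 27.4 and 2874 in THY+ cells, 0, 0 and 68.4 in CSP cells, and 0, 0 and 395 in mSSC cells. The median 6C3+ cell was below the highest CSP and mSSC cells, so the ranges overlap at their ends. It was detected in 30 of 34 6C3+ cells (88.2%, 72.5 to 96.7), 29 of 43 THY+ cells (67.4%, 51.5 to 80.9), 2 of 11 CSP cells (18.2%, 2.28 to 51.8) and 5 of 37 mSSC cells (13.5%, 4.54 to 28.8). The 6C3+ interval lies above those of CSP and mSSC and overlaps that of THY+, which lies above that of mSSC and just meets that of CSP.

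Matn4 was rare everywhere. It was detected in 1 of 34 6C3+ cells (2.94%, 0.0744 to 15.3), 6 of 43 THY+ cells (13.95%, 5.30 to 27.9), 1 of 11 CSP cells (9.09%, 0.230 to 41.3) and 7 of 37 mSSC cells (18.9%, 7.96 to 35.2). All 4 intervals overlap. Its highest FPKM was 10.4 in 6C3+, 55.1 in THY+, 2.32 in CSP and 60.02 in mSSC cells, and its median was 0 in each.

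**Figure D1:**
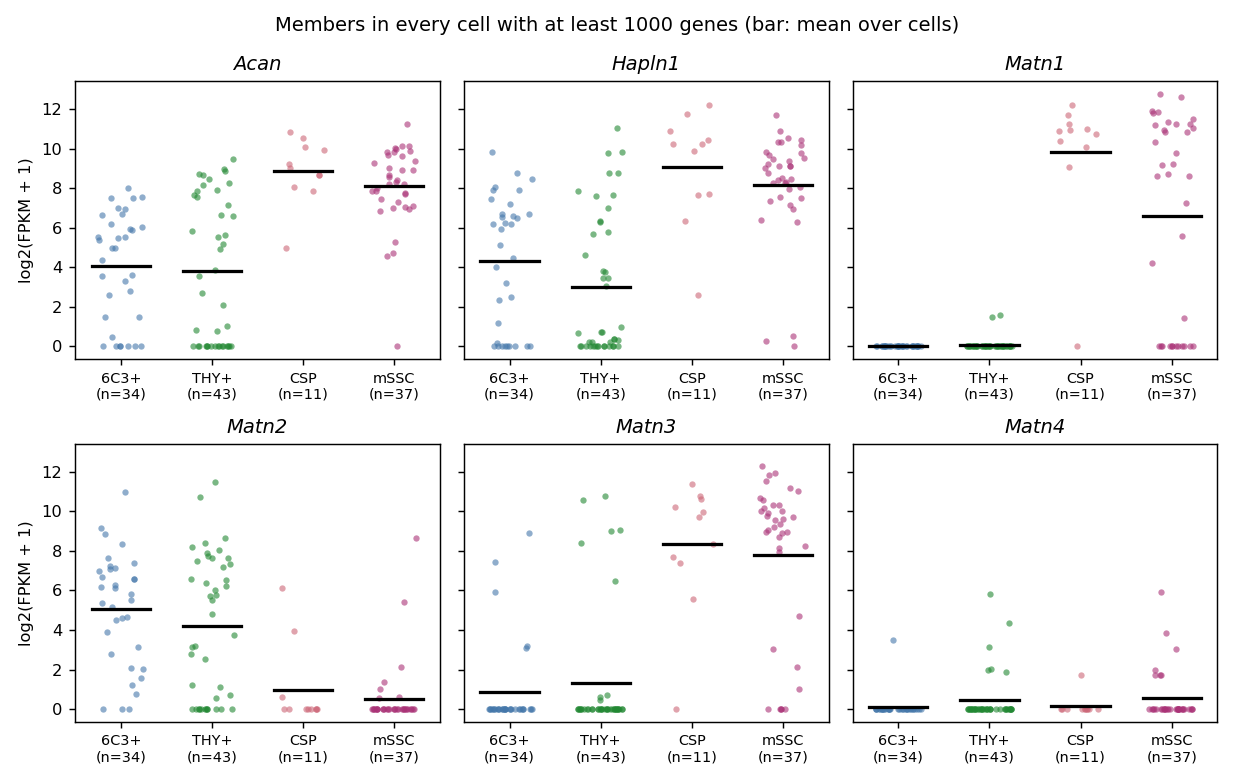
Each point is 1 cell with at least 1000 detected genes, its height is log2(FPKM + 1) of the gene named above the panel, and the bar is the mean over cells. Matn1 and Matn3 lie near 0 in most 6C3+ and THY+ cells and near 10 in most CSP and many mSSC cells. Matn2 is at 0 in most CSP and mSSC cells and spread widely in the others, with means of 5.06 in 6C3+ and 4.21 in THY+ cells.

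**Figure D2:**
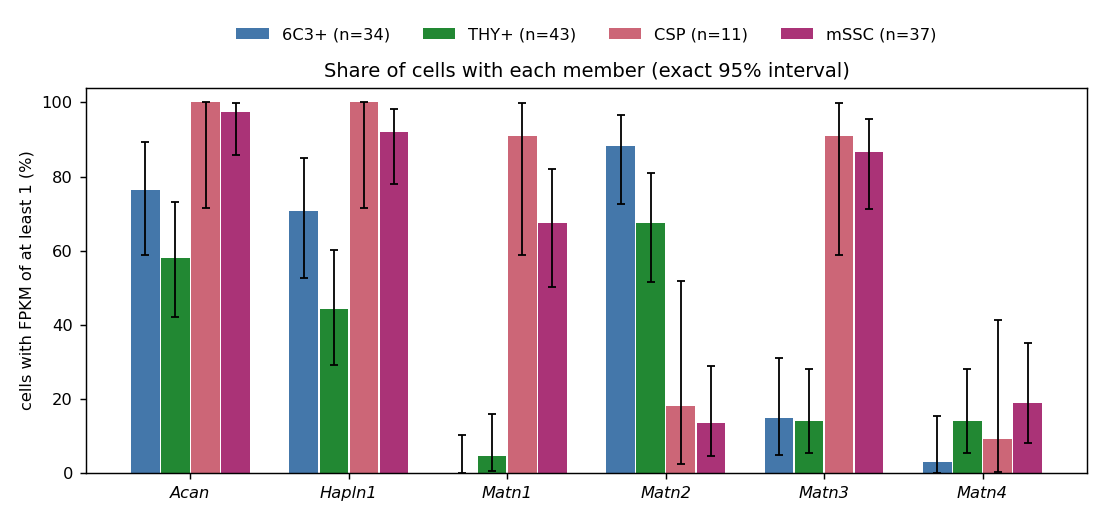
Bars give the percent of cells with an FPKM of at least 1 for each gene, and error bars the exact 95% interval. The intervals of Matn1 and Matn3 in 6C3+ and THY+ cells end below 32%, and those in CSP and mSSC cells begin at or above 50%.

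Differences between populations are given as mean log2(FPKM + 1) in the first population minus that in the second, and a gene is called past the fold at an absolute difference of at least 2. The 6 comparisons share populations, so their values stand side by side and are not independent of one another. Against mSSC cells, 6C3+ cells had 1 of the 6 genes higher (Matn2, 4.53) and 4 lower (Matn3, -6.97, Matn1, -6.60, Acan, -4.06, and Hapln1, -3.88), with Matn4 at -0.43. Of all 24388 genes, 0.242% were higher and 1.44% lower past the same fold. With rescaled FPKM these shares became 1.01% higher and 0.517% lower, and the 6 genes kept their calls, with Matn2 at 6.01 and Acan at -2.93. In the deposited scale, 2 genes had a larger difference than Matn2 and 3 a smaller one than Matn3. Genes in use in most cell types were lower too, with Actb at -1.74 and Gapdh at -2.50, which is a smaller gap than that of any of the 4 lower genes.

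THY+ minus mSSC gave the same calls. Matn2 was higher (3.67), Matn1 (-6.53), Matn3 (-6.51), Hapln1 (-5.17) and Acan (-4.31) were lower, and Matn4 stood at -0.09. Among all genes 0.623% were higher and 0.996% lower, or 0.877% and 0.882% with rescaled FPKM. Hapln1 was further from mSSC in THY+ than in 6C3+ cells, while Matn2 was nearer. With a pseudocount of 10 in place of 1 the difference of Matn2 was 2.00, just under the fold.

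Against CSP cells the differences of the 4 lower genes were larger than against mSSC cells, most of all for Matn1. In 6C3+ minus CSP, Matn1 (-9.84), Matn3 (-7.50), Acan (-4.84) and Hapln1 (-4.78) were lower and Matn2 (4.10) was higher, with Matn4 at -0.05, and 0.599% of all genes were higher and 2.50% lower (1.40% and 2.01% with rescaled FPKM). In THY+ minus CSP, Matn1 (-9.77), Matn3 (-7.03), Hapln1 (-6.07) and Acan (-5.10) were lower and Matn2 (3.24) was higher, with Matn4 at 0.29, and 1.12% of all genes were higher and 2.00% lower. Matn1 had the lowest difference of all 24388 genes in both. The difference of Matn2 in THY+ minus CSP was 1.84 with a pseudocount of 10.

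CSP and mSSC cells shared 1 set of index positions and had near-equal spike-in shares. Matn1 was higher in CSP cells by 3.25, and the other 5 were not past the fold, with Hapln1 at 0.90, Acan at 0.78, Matn3 at 0.53, Matn2 at 0.44 and Matn4 at -0.38. Of all genes 1.19% were higher and 0.607% lower, or 1.99% and 0.476% with rescaled FPKM, and 44 genes had a larger difference than Matn1. The calls rest on the summary and on the cells used. As the log2 of the mean FPKM the difference of Matn1 was 0.51, in cells with 2000 to 3000 genes (3 CSP and 24 mSSC cells) it was 0.02, and over all cells, 26 CSP and 37 mSSC, it was -1.22. Over all cells Hapln1 was at -3.95, Matn3 at -3.54 and Acan at -2.74, all past the fold and lower in CSP. That setting adds 15 CSP cells under 1000 genes and 0 mSSC cells. The share of all genes lower past the fold over all cells ran from 0.172% to 5.86% across the 6 comparisons. In cells with 2000 to 3000 genes Matn3 was at -4.44, Hapln1 at -2.19 and Acan at -0.71. Those 3 CSP cells included 1 with Acan at 30.1, Hapln1 at 5.07 and both Matn1 and Matn3 at 0, which weighs heavily on these values. As the log2 of the mean Matn3 was at -0.20. Hypertrophic chondrocyte markers (4 genes) were detected at a median of 3 per CSP cell and 0 per mSSC cell, with summed FPKM of 0 to 10034 in CSP and 0 to 1919 in mSSC cells and Mmp13 at 0 in both; their part in the Matn1 difference was not tested.

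Between 6C3+ and THY+ cells none of the 6 genes was past the fold. The differences of 6C3+ minus THY+ were 1.29 for Hapln1, 0.86 for Matn2, 0.26 for Acan, -0.07 for Matn1, -0.34 for Matn4 and -0.46 for Matn3. Of all genes 0.0738% were higher and 0.320% lower, or 0.426% and 0.160% with rescaled FPKM. Rescaling put Hapln1 past the fold at 2.12, and the log2 of the mean FPKM did so for Matn3 at -2.32. For genes with a mean FPKM of at least 1, rescaling moved the median difference by at most 0.28 on the log2 scale in any of the 6 comparisons. Single genes moved further than this median, as Hapln1 did here from 1.29 to 2.12, and Acan and Matn2 did in 6C3+ minus mSSC. Leaving out any 1 cell changed none of the 36 calls.

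**Figure D3:**
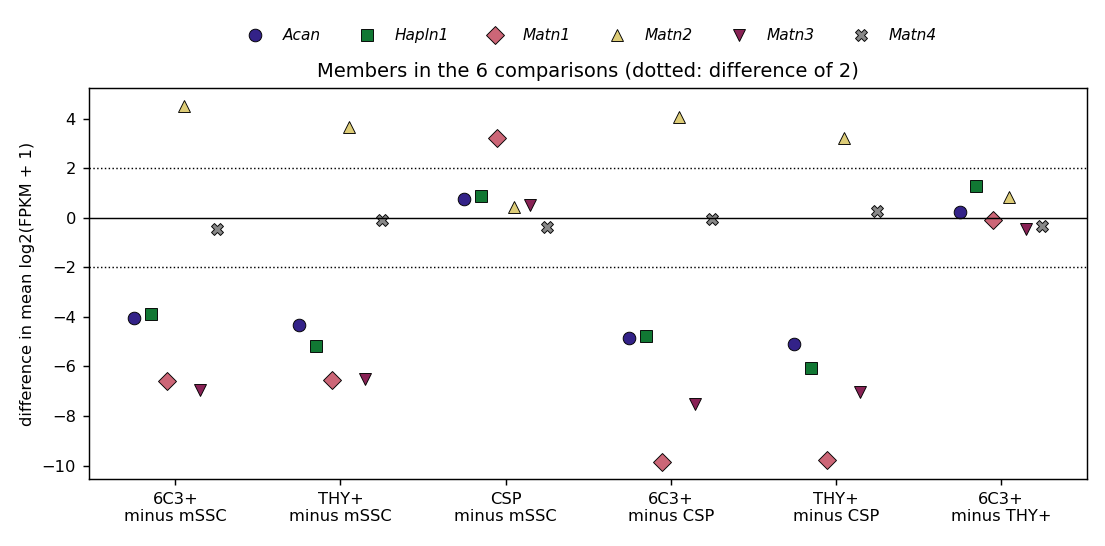
Points give the difference in mean log2(FPKM + 1) of each gene in the 6 comparisons, and dotted lines mark a difference of 2 in either direction. Matn2 lies above the upper line and Acan, Hapln1, Matn1 and Matn3 below the lower one in the 4 comparisons of 6C3+ or THY+ with CSP or mSSC, and Matn1 alone is past a line in CSP minus mSSC.

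Within single cells some combinations of the genes recurred. How often a combination is found depends on the share of cells with each gene, given above. The counts below were not compared with what those shares alone would give. The set Acan, Hapln1, Matn1 and Matn3, with neither of the others, was found in 7 of 11 CSP cells and 15 of 37 mSSC cells, and in no 6C3+ or THY+ cell. The set Acan, Hapln1 and Matn2, with none of the other 3, was found in 15 of 34 6C3+ cells and 10 of 43 THY+ cells, and in no CSP or mSSC cell. At least 3 of the 6 genes were detected in 20 of 34 6C3+ cells, 17 of 43 THY+ cells, 10 of 11 CSP cells and 34 of 37 mSSC cells, and at least 4 in 3, 4, 10 and 26 cells of those populations. All 6 were detected together in 1 mSSC cell.

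In mSSC cells those with Hapln1, Matn1 or Matn3 all lay within those with Acan. Acan was detected in 36 of the 37 cells, so such overlap was nearly fixed by its share. All 34 cells with Hapln1 also had Acan, and all 32 with Matn3 and all 25 with Matn1 had both. Matn3 was present in 23 of the 25 cells with Matn1, and Matn1 in 23 of the 32 with Matn3. In CSP cells the 10 with Matn1 were the 10 with Matn3. All 7 mSSC cells with Matn4 had Matn1 and Matn3 as well.

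In 6C3+ and THY+ cells, where both were detected in fewer cells, the proteoglycan core and link protein were also found apart. Acan and Hapln1 were both detected in 21 of 34 6C3+ cells, which is 80.8% of those with Acan and 87.5% of those with Hapln1, and in 16 of 43 THY+ cells, 64% of those with Acan and 84.2% of those with Hapln1. Matn2 was detected with neither Matn1 nor Matn3 in 26 6C3+ cells and 24 THY+ cells, and in no CSP or mSSC cell. It was found beside Matn1 or Matn3 in 4 6C3+, 5 THY+, 2 CSP and 5 mSSC cells. Matn1 or Matn3 without Matn2 was found in 1 6C3+, 3 THY+, 8 CSP and 29 mSSC cells.

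A few CSP and mSSC cells stood apart from this. At most 2 of the 6 genes were detected in 14 of 34 6C3+ cells, 26 of 43 THY+ cells, 1 of 11 CSP cells and 3 of 37 mSSC cells. That CSP cell had Acan at 30.1 and Hapln1 at 5.07, with 5 of the 13 other chondrocyte markers. Those mSSC cells had Acan at 23.1, 0 and 213, with 0, 4 and 5 of those markers, and the cell without any of them had all 5 pericyte and smooth muscle markers. These cells had between 2620 and 3243 detected genes, so they were not poor in genes overall.

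Cells with Matn3 carried nearly the whole chondrocyte list. The median number of the 13 markers in cells with Matn3 was 12 in 6C3+, 12 in THY+, 12 in CSP and 13 in mSSC cells, and Col9a1, a chain of type IX collagen, was detected in every one of these 5, 6, 10 and 32 cells. The cells with Matn1 had a median of 3 markers in THY+, 12 in CSP and 13 in mSSC cells, and the lowest numbers were 2, 12 and 4. Col9a1 was detected in 0 of the 2 THY+, all 10 CSP and 24 of the 25 mSSC cells with Matn1. Cells with Matn2 had a median of 7 markers in 6C3+, 5 in THY+, 12.5 in CSP and 12 in mSSC cells. Col1a1, a chain of type I collagen, was detected in 27 of the 30 6C3+ cells with Matn2, in all 29 such THY+ cells, in neither of the 2 CSP cells and in 3 of the 5 mSSC cells. With or without Matn2, it was detected in 29 of 34 6C3+, 42 of 43 THY+, 1 of 11 CSP and 22 of 37 mSSC cells. The counts among cells with Matn2 thus lie near the share of Col1a1 in each population. Col9a1 was detected in 19, 13, 10 and 33 cells of these populations.

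**Figure D4:**
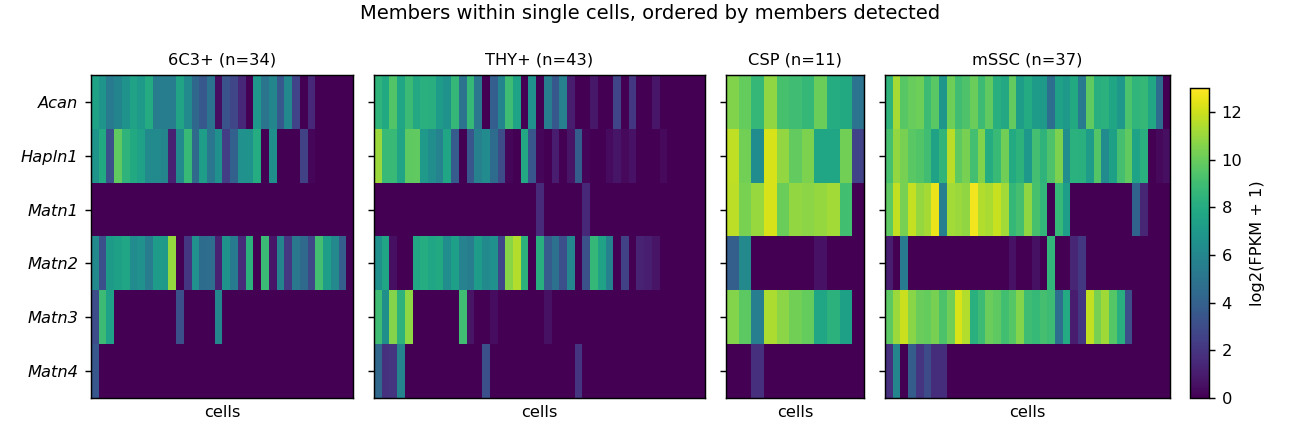
Each column is 1 cell and each row 1 gene, the colour gives log2(FPKM + 1), and cells are ordered in each population by the number of the 6 genes detected. In most CSP and mSSC cells Acan, Hapln1, Matn1 and Matn3 are bright together. In 6C3+ and THY+ cells Acan, Hapln1 and Matn2 are the genes most often detected, all 3 together in 18 of 34 and 12 of 43 cells. Within these cells the Spearman correlation of Acan with Matn2 was -0.05 in 6C3+ and 0.33 in THY+.

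The ratio in a given cell does not depend on how FPKM was scaled between cells. Which cells have both genes at an FPKM of at least 1 does, so the medians below can shift with scale. They leave out cells that lack either gene. The log2 ratio of Hapln1 over Acan had a median of 0.46 in 21 6C3+ cells with both, -0.37 in 16 THY+ cells, 0.85 in 11 CSP cells and 0.54 in 34 mSSC cells. Its range was wide in each population, from -5.17 to 5.72 in 6C3+ and from -2.69 to 4.71 in mSSC cells, so these medians lie close together beside the spread over cells. Both genes were lower in 6C3+ than in mSSC cells, yet their median ratio there was 0.46 beside 0.54 in mSSC cells.

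The matrilins stood in other proportions to aggrecan. Matn2 over Acan had a median log2 ratio of 1.52 in 23 6C3+ cells and -0.23 in 19 THY+ cells, against -5.26 in 2 CSP cells and -4.23 in 5 mSSC cells. Matn1 over Acan was above 0 in all 10 CSP cells with both, with a median of 1.29, and in 21 of 25 mSSC cells, with a median of 1.53, and no 6C3+ or THY+ cell had both. Matn3 over Acan had a median of -1.22 in 4 6C3+, 0.94 in 6 THY+, 0.20 in 10 CSP and 1.09 in 32 mSSC cells.

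Together the 6 genes took a median of 0.0753% of the gene FPKM in 6C3+ cells, 0.0342% in THY+, 0.795% in CSP and 0.301% in mSSC cells. The 6 cartilage collagens (Col2a1, Col9a1, Col9a2, Col9a3, Col11a1 and Col11a2) took 0.906%, 0.0367%, 5.44% and 4.56% in those populations. The largest part in CSP cells was that of Matn1, at a median of 0.298%, and in mSSC cells that of Matn3, at 0.0920%. In 6C3+ and THY+ cells the largest part was that of Matn2, at 0.0193% and 0.00668%.

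**Figure D5:**
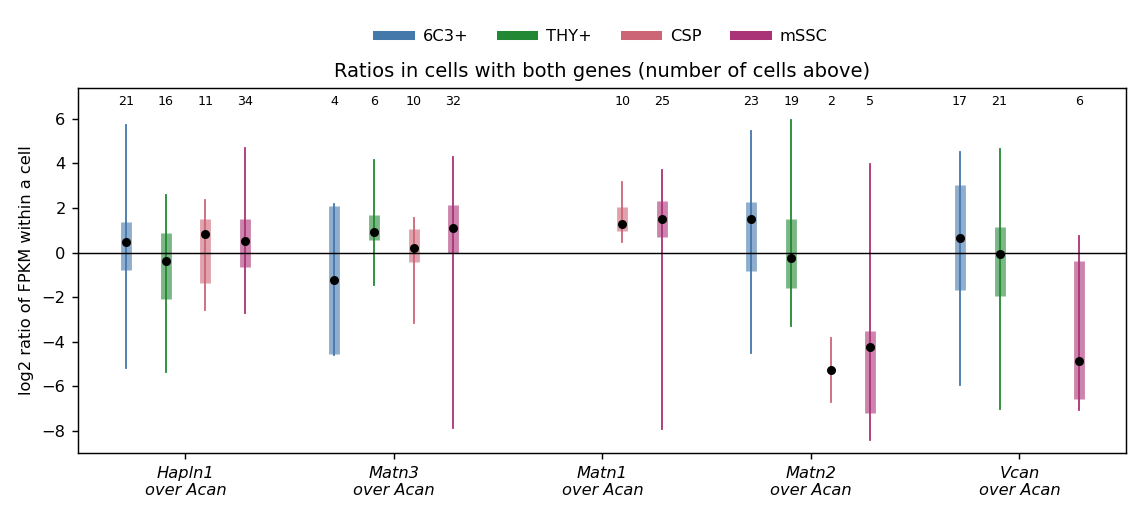
Dots give the median log2 ratio of FPKM within cells that had both genes, thick bars the middle 50% of cells (drawn from 4 cells up), thin lines the whole range, and numbers above the count of cells. The medians of Hapln1 over Acan run from -0.37 in THY+ to 0.85 in CSP cells. Matn2 over Acan has medians of 1.52 and -0.23 in 6C3+ and THY+ cells and of -5.26 and -4.23 in CSP and mSSC cells.

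Over the 125 cells, the genes whose pattern was most like that of each gene were ranked by Spearman correlation of log2(FPKM + 1) among 7580 genes detected in at least 10% of these cells. The cells share plates and gene numbers within a population, so the values describe the likeness only. Acan was most like Col11a1 (0.80), Col9a3 (0.77), Col9a2 (0.75), Sdc4 (0.75) and Hapln1 (0.74), and Hapln1 most like Lect1 (0.80), Col11a1 (0.80), Col9a1 (0.79), Scrg1 (0.79) and Col9a2 (0.78). Matn3 was most like Col9a3 (0.85), Lect1 (0.85), Col9a1 (0.82), Mia (0.81) and Col9a2 (0.81), and Matn1 most like Col9a3 (0.74), Col9a1 (0.72), Col9a2 (0.71), Susd5 (0.70) and Lect1 (0.70). Lect1 is the older symbol of Cnmd, which encodes chondromodulin.

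Matn2 kept other company. Its closest were Igfbp4 (0.57), Col14a1 (0.56), Vcan (0.55), Antxr1 (0.55) and Pdgfra (0.54), and its correlation with Matn1 was -0.47 and with Matn3 -0.46. Within single populations these negative values were weaker or absent. Matn2 with Matn1 was at 0.14 in THY+, 0.16 in CSP and -0.21 in mSSC cells. Matn2 with Matn3 was at -0.20 in 6C3+, -0.07 in THY+, 0.09 in CSP and -0.08 in mSSC cells. For Matn4 the closest were Cog3 (0.42), Appbp2 (0.41), Rnf111 (0.41), Hoxa10 (0.40) and Arhgef6 (0.39), with 15 cells carrying the gene. The median over all genes ranked was 0.04 for Matn2 and 0.08 for Matn4.

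Within the 37 mSSC cells, where plate and population do not vary, Matn1 was again most like type IX collagen genes, Col9a3 (0.77), Col9a1 (0.73) and Col9a2 (0.70), with Lect1 (0.72) and Mfi2 (0.69). Matn3 was most like Col11a1 (0.75), Lect1 (0.67), Igf2r (0.65), Kctd4 (0.65) and Mia (0.63). Acan was most like Aldh6a1 (0.70), C1qtnf3 (0.70), Slc35d1 (0.66), Rps3 (0.64) and Matn1 (0.60), and Hapln1 most like Rps27rt (0.67), Malat1 (0.66), Ncmap (0.64), Lect1 (0.64) and Tmem256 (0.62). Slc35d1 encodes the transporter that brings nucleotide sugars into the endoplasmic reticulum for chondroitin sulfate synthesis. The correlation of Acan with Hapln1 was 0.39 within mSSC cells, 0.62 in CSP, 0.57 in THY+ and 0.61 in 6C3+ cells. Matn2, present in 5 mSSC cells, was most like Fam118b (0.63), and Matn4, present in 7, most like M1ap (0.79).

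Genes that work with aggrecan were described from a list of 11 hyaluronan partners. Versican, encoded by Vcan, is the hyaluronan-binding proteoglycan of softer matrix, and it was higher in the same populations as Matn2. It was detected in 22 of 34 6C3+ cells (median FPKM 14.7), 34 of 43 THY+ cells (39.4), 0 of 11 CSP cells and 7 of 37 mSSC cells (0). Vcan was higher in 6C3+ minus mSSC (2.47), THY+ minus mSSC (3.87), 6C3+ minus CSP (3.42) and THY+ minus CSP (4.82). Cd44, a cell-surface receptor for hyaluronan, was detected in 16, 29, 2 and 8 cells of 6C3+, THY+, CSP and mSSC, and was past the fold in THY+ minus mSSC (3.41) and THY+ minus CSP (3.96). Prg4, which encodes lubricin of the joint surface, was higher in 6C3+ cells than in mSSC (2.72), CSP (5.72) and THY+ cells (4.19), and lower in CSP than in mSSC cells (-3.00). Of this list 2 were higher and 0 lower in each of the 4 comparisons of 6C3+ or THY+ with CSP or mSSC, 1 lower in CSP minus mSSC and 1 higher in 6C3+ minus THY+.

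The other link proteins were found in few cells. Hapln2 and Hapln4 were detected in 0 of the 125 cells, and Hapln3 in 1 of 34 6C3+, 2 of 43 THY+, 3 of 11 CSP and 0 of 37 mSSC cells. The highest FPKM of Hapln3 was 305 in 6C3+, 17.3 in THY+ and 105 in CSP cells, and it was not past the fold in any comparison. Has2, which makes hyaluronan, was detected in 6 of 34 6C3+, 3 of 43 THY+, 2 of 11 CSP and 13 of 37 mSSC cells, with a highest FPKM of 33.4, 22.5, 19.9 and 62.3. Has1, another hyaluronan synthase gene, was detected in 3 6C3+, 1 THY+, 0 CSP and 5 mSSC cells, with a highest FPKM of 719 in 6C3+, 4.29 in THY+ and 1860 in mSSC cells. The third, Has3, was detected in 1 CSP cell, at 2.05, and in no cell of the other populations.

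The 8 genes listed as matrilin partners were lower in most cases in 6C3+ and THY+ cells. Past the fold, 0 were higher and 6 lower in 6C3+ minus mSSC, 0 and 7 in THY+ minus mSSC, 0 and 5 in 6C3+ minus CSP, and 0 and 6 in THY+ minus CSP, with median differences of -4.05, -5.67, -4.98 and -6.92 beside a median of 0 over all genes. Among genes with a mean FPKM of at least 1 the medians were -0.12, 0.11, -0.10 and 0.17. Of those genes 3.31%, 2.13%, 6.20% and 4.41% were lower past the fold in these 4 comparisons. Col9a3 had differences of -6.38 in 6C3+ minus mSSC and -6.92 in THY+ minus mSSC. Comp, which encodes cartilage oligomeric matrix protein, was detected in 24, 20, 11 and 33 cells of 6C3+, THY+, CSP and mSSC. It was past the fold in 5 comparisons, at -2.48 in 6C3+ minus mSSC, -4.43 in THY+ minus mSSC, 2.36 in CSP minus mSSC, -4.84 in 6C3+ minus CSP and -6.79 in THY+ minus CSP. In CSP minus mSSC the list had 1 higher (Comp) and 1 lower (Fmod, which encodes fibromodulin, -2.37), and in 6C3+ minus THY+ it had 3 higher and 0 lower.

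Enzymes and transporters for the chondroitin sulfate chains of aggrecan (20 genes) were in part lower where Acan was lower. Past the fold, 6 were lower in 6C3+ minus mSSC, 5 in THY+ minus mSSC, 8 in 6C3+ minus CSP and 7 in THY+ minus CSP, none was higher in these, and none was past it in CSP minus mSSC or 6C3+ minus THY+. Chst11, a chondroitin sulfotransferase, was detected in 1 of 34 6C3+ cells, 9 of 43 THY+ cells, 8 of 11 CSP cells and 19 of 37 mSSC cells. Its differences were -3.05 in 6C3+ minus mSSC and -4.89 in 6C3+ minus CSP. Papss2, which makes the sulfate donor, was at -2.71 in 6C3+ minus mSSC, -3.06 in THY+ minus mSSC, -4.60 in 6C3+ minus CSP and -4.95 in THY+ minus CSP. Ugdh, which makes UDP-glucuronate for the chains, was at -2.84, -2.29, -4.41 and -3.86 in the same comparisons. The median over the 20 genes was -0.65, -0.000477, -1.04 and -1.07 there.

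Of 11 genes for breakdown of the matrix, none was past the fold in 6C3+ or THY+ minus mSSC or in 6C3+ minus CSP. Timp3, an inhibitor of aggrecan-cutting proteases, was higher in THY+ minus CSP (3.60), as was the serine protease gene Htra1 (2.27). Timp3 was lower in CSP minus mSSC (-3.22) and 6C3+ minus THY+ (-2.12). Adamts5, an aggrecanase, was detected in 5 of 34 6C3+ cells, 7 of 43 THY+ cells, 0 of 11 CSP cells and 2 of 37 mSSC cells, and Adamts4, another, in 2, 5, 0 and 0 cells.

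Among 10 transcription regulators of chondrocytes, 3 were lower in both 6C3+ and THY+ minus mSSC, and 4 lower with 1 higher in both 6C3+ and THY+ minus CSP. Sox9, the master regulator of cartilage genes, was at -2.85 in 6C3+ minus mSSC and -4.83 in THY+ minus mSSC. It was nevertheless detected in 30 of 34 6C3+ cells and 24 of 43 THY+ cells, against 10 of 11 CSP cells and 34 of 37 mSSC cells. Nfib, a nuclear factor I gene, was the gene higher against CSP, at 3.46 in 6C3+ and 5.43 in THY+ cells, and was lower in CSP minus mSSC at -4.42. Runx3 and Runx2, Runt-family regulators of chondrocyte maturation, were higher in CSP minus mSSC at 2.81 and 2.19, as was Mef2c at 2.07. In that comparison 3 were higher and 1 lower, and in 6C3+ minus THY+ none was past the fold.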

How the data were processed

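FPKM values were used as deposited by the authors, in 1 table of 24388 genes and 92 spike-ins. Per the labels' protocols, live cells were double-sorted, captured on the Fluidigm C1 system and imaged, and cDNA was made with the SMARTer kit and libraries with Nextera XT. The mm10 build and SAMtools are named in the submitters' processing notes. Not given in the sources used here were the aligner, the program that estimated FPKM and the annotation, and depth per cell is unknown. Each table column was assigned to the cell whose title it spells, which left 0 columns over, and 0 pairs of columns were identical.

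Differences are of mean log2(FPKM + 1) over cells, with a call at an absolute difference of at least 2. Detection is an FPKM of at least 1. The members, lists, markers, comparisons and rules were chosen with earlier results of these data known. From each list up to 4 genes with the largest difference per comparison could be named, and for likeness the 5 highest Spearman correlations, leaving out unnamed gene models, pseudogenes and sex-linked marker genes. Single-cell counts for Has1, Has2, Has3, Hapln2, Hapln3, Hapln4, Adamts4, Adamts5 and Cd44 were named after their values were seen. Alternatives were pseudocounts of 0.1 and 10, rescaling to 1000000, all cells, other ranges of detected genes, the log2 of the mean, THY+ cells without 2 index rows, genes at a mean FPKM of at least 1, and detection above 0 or at 10. The difference and the likeness were tested on simulated data. Promoters come from the RefSeq table of GRCm38.p6, which held 5 of the 6 genes, and coordinates from GENCODE M21. Software was scipy 1.17.1, matplotlib 3.10.9, pandas 2.3.3 and numpy 2.4.6 under Python 3.11.15. The bulk and no-cell controls that the labels mention were not analysed here.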

Additional observations from a re-analysis of the deposited data

How the results depend on the processing

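Each population is 1 sample from unnamed animals, so no setting measures the spread between animals, and depth per cell is unknown. In the 4 comparisons of 6C3+ or THY+ with CSP or mSSC, 5 of the 6 genes were past the fold in the values given above, and 4 or 5 under every alternative; the one lost was Matn2, at 2.00 in THY+ minus mSSC and 1.84 in THY+ minus CSP with a pseudocount of 10, and at 1.66 in 6C3+ minus mSSC and 1.78 in 6C3+ minus CSP over all cells. CSP minus mSSC had 1 gene past the fold, 3 over all cells (0 higher, 3 lower), 2 in cells with 2000 to 3000 genes and 0 as the log2 of the mean, and Matn1 turned to -1.22 over all cells; there Acan was at -2.74, Hapln1 at -3.95 and Matn3 at -3.54. The all-cells setting added 15 CSP cells under 1000 genes and 0 mSSC cells. With it, 0.172% to 5.86% of all genes were lower past the fold across the 6 comparisons. In cells with 2000 to 3000 genes Hapln1 was at -2.19 and Matn3 at -4.44. Only 3 CSP cells were left, 1 of them with Matn1 and Matn3 at 0. In 6C3+ minus THY+ 0 genes were past the fold, 1 with rescaling (Hapln1) and 1 as the log2 of the mean (Matn3). The share of cells with at least 3 of the genes was 64.8% (55.8 to 73.1), 54.4% with detection at 10 and 39.2% over all 227 cells. In 13 of 24 pairs of gene and population the gene was detected in at least 50% of cells, and in 9 to 14 under the alternatives. The share of all genes past the fold moved by over 1.5 times in all 6 comparisons with either pseudocount, over all cells, as the log2 of the mean and among genes with a mean FPKM of at least 1, and reached 16.1% higher and 13.1% lower as the log2 of the mean. The cause of these shifts was not tested. No paired analysis was possible because replicate numbers only name cells, the labels tie no cells of different populations to 1 animal, and no test was run.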
